A study of Mus musculus with 8 samples.

Results

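The collagen genes of the mouse heart were followed in 8 RNA-seq libraries of heart cardiomyocytes from LncSync-null mice, which lack a long noncoding RNA, and from wild-type mice. Members were all rows of the count table whose Ensembl identifier maps to a protein-coding mouse gene with a symbol made of Col, digits, a and digits. This gave 44 genes of the 51826 in the table: 11 fibrillar, 6 of the basement membrane (type IV) and 27 others. A filter on low counts kept 40 of the 44, and 16623 genes in all. There were 4 groups with 2 libraries in each, namely LncSync-null adult hearts (KO adult), wild-type adult hearts (WT adult), LncSync-null embryonic hearts at e13.5, a day of gestation (KO e13.5), and wild-type hearts at e13.5 (WT e13.5). All carried the strain label C57BL/6, the source label heart and the cell type label cardiomyocyte. The age of the adults, the sex, the kind of null allele and any purification of the cells are not given in the labels. No gene of the table is named LncSync, so the loss of its transcript was not checked here.

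Collagens are proteins in which 3 polypeptide chains, each from a collagen gene, wind into a triple helix. Fibrillar collagens (types I, II, III, V, XI, XXIV and XXVII) build the fibres that carry tension, and in the heart types I and III are made mainly by fibroblasts. Type IV collagens form the sheet-like network of the basement membrane around each cardiomyocyte and under the endothelium of its capillaries. The other types decorate fibrils, form beaded filaments or short-chain networks, link basement membranes to the matrix around them, or span the cell membrane. In the embryonic heart the endocardial cushions, from which the valves develop, make several collagens that are otherwise best known from cartilage.

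The libraries held 16495084 to 20395600 counts, and 3 counts amounted to 0.103 to 0.207 CPM, depending on the library (CPM, the usual library-size-scaled count, with TMM scaling between libraries). Counting intervals and this floor cover counting error only. Whether libraries of the same group came from different animals is not stated, and p-values therefore measure only how these samples spread, which may be technical. Cardiomyocyte markers were present in every library and summed to 68680 to 91570 CPM in adults and 16050 to 38460 CPM at e13.5, but markers of other cells were present too. The 15 fibroblast markers summed to 937 to 1878 CPM in adults and 843 to 1366 CPM at e13.5, and the 17 endothelial markers to 1225 to 2713 CPM in adults and 1056 to 1400 CPM at e13.5. No marker of these 3 lists was at 0 in all libraries. Adult libraries held 22.6% to 28.8% mitochondrial counts, against 3.21% to 4.36% at e13.5, and haemoglobin took 15.5% of KO e13.5 library 1. In bulk RNA, fewer cells of a type and less RNA per cell cannot be told apart.

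The e13.5 libraries with the number 2 stood apart from those with the number 1 in both genotypes, and the collagen genes were among the genes that differed. Collagen genes took 0.252% and 0.156% of the counts in KO adults and 0.151% and 0.0936% in WT adults. At e13.5 they took 0.0601% in library 1 and 0.559% in library 2 of KO, and 0.107% in library 1 and 0.802% in library 2 of WT. The exact 95% binomial intervals were narrow beside these gaps, for example 0.0589% to 0.0613% and 0.556% to 0.563% for the KO e13.5 libraries. The median log2 ratio of library 2 over library 1 was 1.66 in KO e13.5 and 1.94 in WT e13.5 over the 34 collagen genes with a mean of at least 1 CPM (0.5 CPM added to each value), against 0.03 and 0.02 over all protein-coding genes at that level. This ratio also followed transcript length, with -0.76 and -0.82 for transcripts under 1500 bases and 0.53 and 1.24 for those of 6000 bases or more. The median transcript length was 5989 bases for collagen genes and 2683 bases for all protein-coding genes. The part of transcript length or of cell makeup in the gap was not tested. Between the adult libraries of KO the ratio fell with GC content, from 0.52 under 42% to -0.55 at 58% or more. It rose with length, from -0.54 to 0.34 over the same length bins. WT adults had -0.02 and -0.06 for GC and -0.10 and -0.14 for length. Median GC content was 55.4% for collagen genes and 49.1% for all protein-coding genes. Collagen medians were -0.45 in KO and -0.60 in WT adults, beside -0.13 and -0.06 for all such genes. The part of GC or length was not tested.

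**Figure D1:**
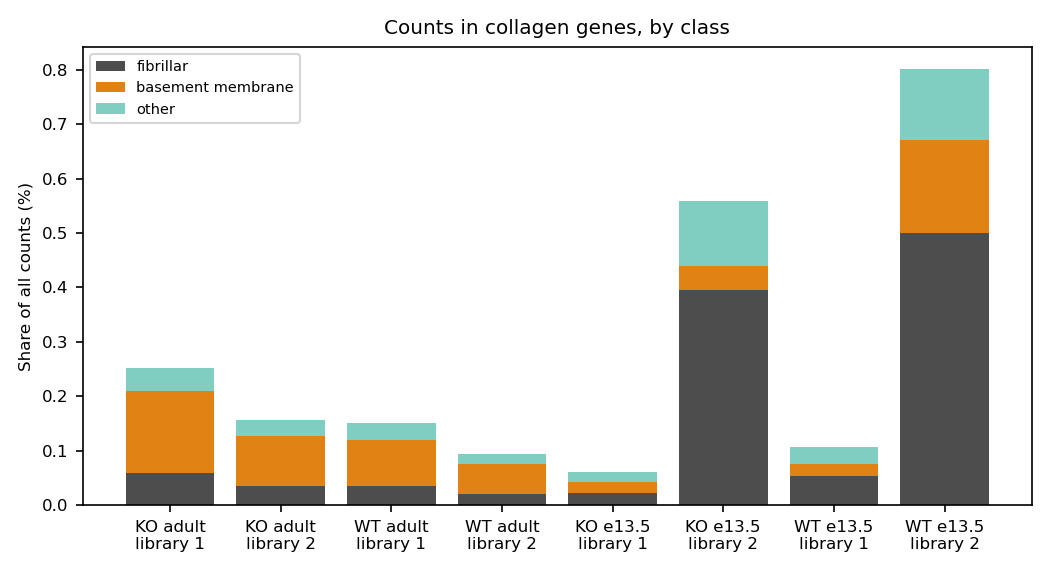
Share of all counts (%) in collagen genes for each library, stacked by class (fibrillar at the bottom, basement membrane in the middle, other on top). The bars of e13.5 library 2 reach 0.559% in KO and 0.802% in WT, while those of e13.5 library 1 reach 0.0601% and 0.107%.

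The classes of collagen differed in their share between the ages. In adults the basement membrane genes took the largest part of the collagen counts, with 0.150% and 0.0920% of all counts in KO and 0.0847% and 0.0564% in WT. The fibrillar genes took 0.0594% and 0.0350% in KO adults and 0.0356% and 0.0199% in WT adults. At e13.5 the fibrillar genes took 0.0222% and 0.396% in KO and 0.0525% and 0.5% in WT, and the basement membrane genes 0.0207% and 0.0436% in KO and 0.0225% and 0.171% in WT. Basement membrane genes thus exceeded fibrillar genes in all 4 adult libraries, and fibrillar genes exceeded basement membrane genes in all 4 e13.5 libraries. These shares are of counts and were not scaled by transcript length. Per kb of transcript, Col4a1 led in adults, with a mean of 124 ± 54.4 CPM per kb in KO and 62.5 ± 18.1 in WT (SD, n = 2). It was followed by Col4a2, with 98.9 ± 41.3 CPM per kb in KO and 52.6 ± 15.3 in WT adults, and by Col3a1, with 45.3 ± 20.6 in KO and 19.3 ± 8.54 in WT adults. At e13.5 Col1a1 had 123 ± 159 CPM per kb in KO and 116 ± 120 in WT, and Col3a1 had 54.2 ± 61.9 in KO and 123 ± 151 in WT. These e13.5 SDs are as large as the means because library 2 was far above library 1, so the neighbours in this order do not differ beyond their spread.

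**Figure D2:**
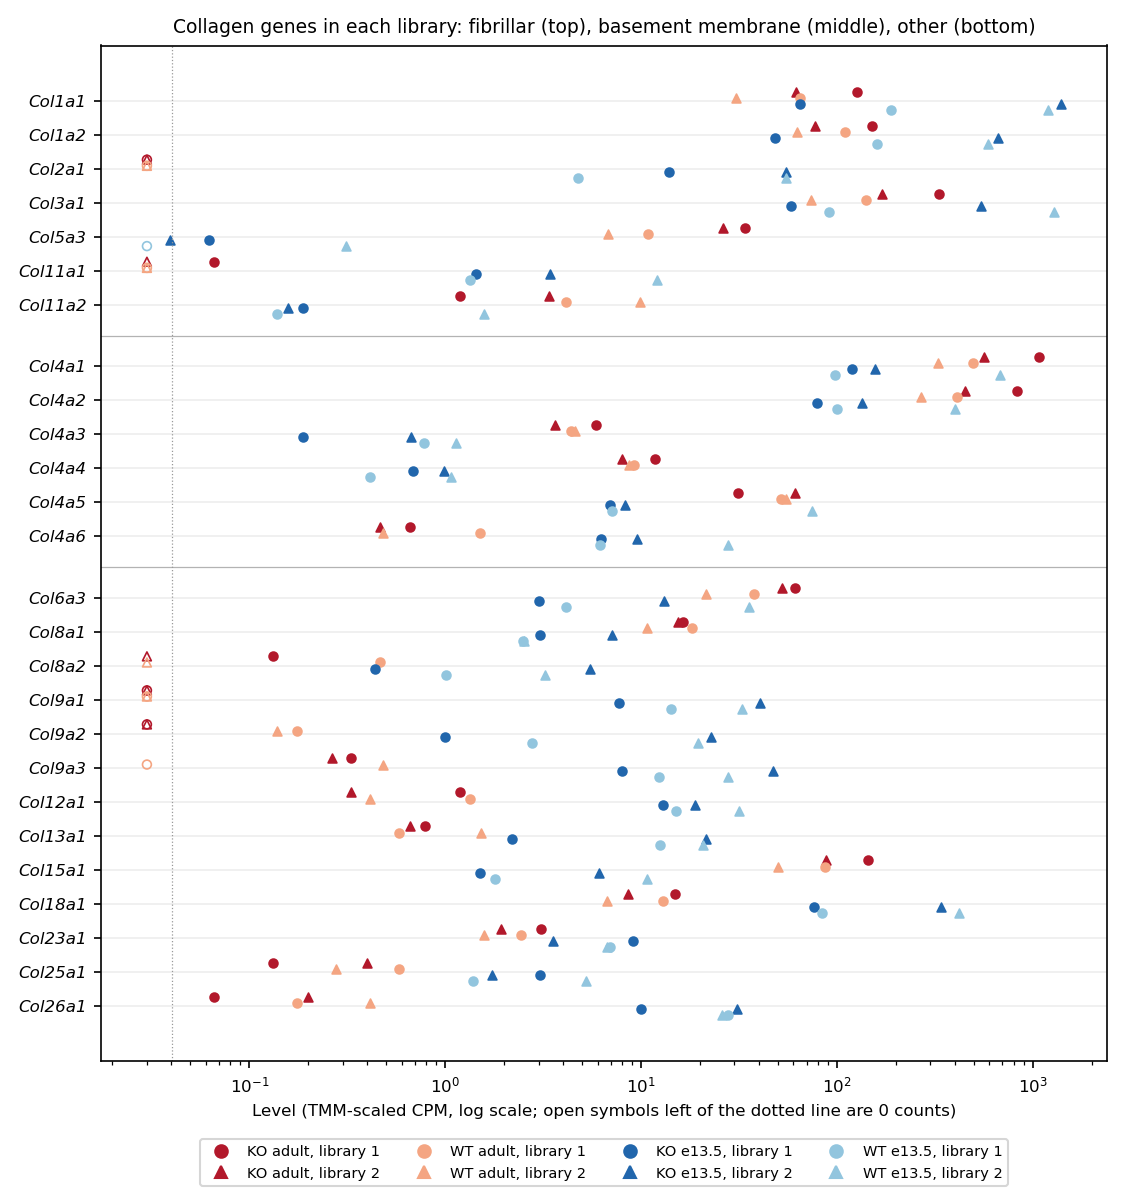
Level (TMM-scaled CPM, log scale) of 26 collagen genes in each of the 8 libraries. Circles are library 1 and triangles library 2, and open symbols left of the dotted line had 0 counts. Col15a1 and Col5a3 lie right in adults, Col18a1 lies right at e13.5, and Col2a1 and Col9a1 had 0 counts in all adult libraries.

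The comparison of adult with e13.5 hearts asked how the collagen repertoire changes as the heart matures. Averaged over both genotypes, 9 collagen genes were higher in adults, 17 were lower and 14 did not pass (edgeR quasi-likelihood test with Benjamini-Hochberg adjustment over 16623 genes, threshold 0.05). Of all genes tested, 27% were called higher and 32.6% lower in this comparison, so 9 and 17 of 40 are read against that background. Within KO, 11 rose and 12 fell with age, against backgrounds of 20.5% and 20.9%. Within WT, 7 rose and 15 fell, against backgrounds of 17.8% and 21.1%. The median log2 fold change of the 40 genes was -0.48 in KO and -1.48 in WT, beside -0.15 and -0.26 for all genes tested, and was the same with genes at 0 set at their bounds. These medians rest on the number 2 libraries of e13.5, since the median was 1.09 in KO without KO e13.5 library 2 and -0.18 in WT without WT e13.5 library 2. By class, averaged over genotypes, 2 of 11 fibrillar genes were higher and 5 lower, 3 of 6 basement membrane genes were higher and 1 lower, and 4 of the 23 other genes tested were higher and 11 lower. Of the 26 calls averaged over genotypes, 18 held in every setting in which the gene was tested. Calls within a single genotype were more fragile, and 9 of 23 in KO and 9 of 22 in WT held in every setting.

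These counts depend on single libraries, and so does the number of calls over all genes tested. That number, which counts calls in both directions, moved the same way in each fit below, but by other relative amounts. Whether the changes are particular to collagen genes was not tested. Genes called higher in WT adults numbered 2 without WT adult library 1, 4 without WT adult library 2, 4 without WT e13.5 library 1 and 12 without WT e13.5 library 2, in place of 7. Those called lower in WT numbered 8 without either of the WT adult libraries, in place of 15. In KO, 5, 5 and 4 were higher without KO adult library 1, KO adult library 2 and KO e13.5 library 1, in place of 11, and 6 and 5 were lower without KO adult library 1 and library 2, in place of 12. Averaged over genotypes, 15 were higher without WT e13.5 library 2 and 17 without both e13.5 libraries of number 2, in place of 9.

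**Figure D3:**
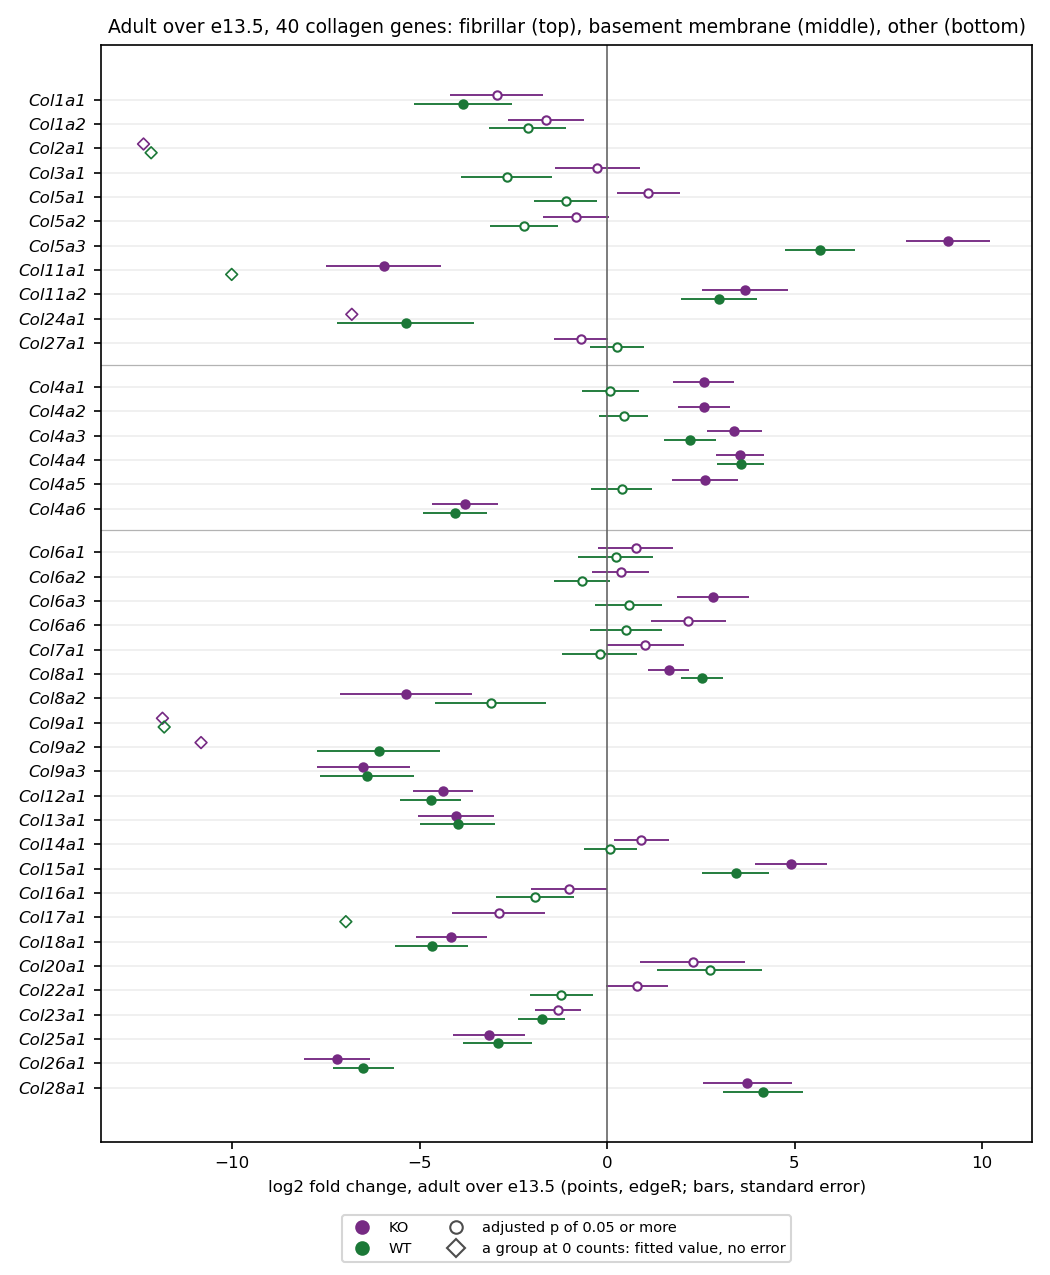
Log2 fold change of adult over e13.5 (x axis) for the 40 tested collagen genes, in KO (upper symbol of each gene) and WT (lower symbol), with standard errors. Filled circles have an adjusted p below 0.05, and diamonds are fitted values of genes at 0 counts in a group. Col4a3, Col4a4, Col15a1 and Col5a3 lie right of 0 and Col4a6, Col18a1, Col12a1 and Col26a1 left of 0 in both genotypes.

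Among the fibrillar genes, the 2 that rose in adults were Col5a3 and Col11a2, chains of types V and XI, and none of the main fibre genes passed as higher. Type V and type XI collagens are incorporated in small amounts into fibrils of other types and set their diameter. Col5a3 (ENSMUSG00000004098, chromosome 9, 20770050 to 20815067) had 34 and 26.2 CPM in KO adults and 10.9 and 6.82 CPM in WT adults, against 0.0625 and 0.0396 CPM in KO and 0 and 0.31 CPM in WT at e13.5. All 4 adult libraries lay far above all 4 e13.5 libraries, and the log2 fold change was 7.38 ± 0.73 (SE) averaged over genotypes (adjusted p = 3.92e-05). In KO there were 911 counts in adults against 2 at e13.5, a ratio of 621 whose counting interval ran from 171.5 to 5137. In WT the log2 fold change was 5.67 ± 0.93 (adjusted p = 0.00168). Col11a2 had 1.19 and 3.38 CPM in KO adults and 4.13 and 9.92 CPM in WT adults, against 0.188 and 0.158 CPM in KO and 0.138 and 1.58 CPM in WT at e13.5. It was higher in adults within each genotype, although KO adult library 1 lay below WT e13.5 library 2 (log2 3.34 ± 0.77, adjusted p = 0.00446 averaged over genotypes). Within KO its call was lost without KO adult library 2 or either of the KO e13.5 libraries. Within WT it was lost without any adult library of either genotype or WT e13.5 library 1, and with only the libraries of the comparison (adjusted p = 0.0524).

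The genes Col2a1 of type II and Col11a1 of type XI, collagens of cartilage fibrils, fell to 0 or nearly 0 in adults, while the type XI gene Col11a2 rose. Col2a1 (ENSMUSG00000022483, chromosome 15, 97975602 to 98004695) had 0 and 0 CPM in KO adults and 0 and 0 CPM in WT adults, against 13.9 and 54.8 CPM in KO and 4.75 and 54.9 CPM in WT at e13.5. With no count in any adult library it was at least 346-fold lower in KO adults and at least 315-fold lower in WT adults (adjusted p = 0.00381 and 0.00433). These bounds set the e13.5 mean against 3 counts over the 2 adult libraries of a group. Library 2 dominated the e13.5 means, so bounds from library 1 alone would be lower. Col11a1 had 0.0659 and 0 CPM in KO adults and 0 and 0 CPM in WT adults, against 1.44 and 3.44 CPM in KO and 1.34 and 12.1 CPM in WT at e13.5. A single count remained in KO adults against 110 at e13.5 (ratio 80.7, counting interval 14.2 to 3215, adjusted p = 0.0152). This call was lost without either of the KO adult libraries and with the library number as a block within each age (adjusted p = 0.0548). For age, that block sets the fitted library 1 level of adults against that of e13.5, with a step to library 2 shared by both genotypes of an age. By the e13.5 mean, which library 2 dominated, Col11a1 was at least 70.9-fold lower in WT adults (adjusted p = 0.00459). Col24a1, a fibrillar gene known from developing bone and cornea, ranged from 0 to 0.0582 CPM in adults and from 0.188 to 2.86 CPM at e13.5. It was called lower in WT adults (1 count against 88, ratio 55.0, counting interval 9.61 to 2196, adjusted p = 0.0456) and missed in KO (adjusted p = 0.0513). The WT call was lost without any 1 of the 4 adult libraries, without WT e13.5 library 2 and with the library number as a block within each age (adjusted p up to 0.338 over these settings).

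Beside these genes, several markers of cartilage, bone, valve and epicardial cells were also lower in adults. The 11 endocardial cushion and valve markers summed to 146.6 and 166.5 CPM in KO adults and 165 and 146.3 CPM in WT adults, against 277.5 and 1160 CPM in KO and 369.9 and 1057 CPM in WT at e13.5. Of these 11, 7 had negative and 4 positive fold changes averaged over genotypes. In all 6 were called lower and 1 higher in adults, beside 32.6% and 27% of all genes tested. The 12 cartilage and bone markers summed to 2.25 to 4.41 CPM in adults and 35 to 137.3 CPM at e13.5, of which Sox9 and Hapln1, which stand in both lists, made up most. Of the 8 cartilage and bone markers tested, 5 were lower and 0 higher in adults. Of the 10 epicardial markers, 6 were lower and 0 higher, with sums of 18.03 to 55.92 CPM in adults and 202.5 to 420.3 CPM at e13.5. Sox9, a transcription factor of cushions and cartilage, had 0.597 to 1.52 CPM in adults, against 18.2 and 94.2 CPM in KO and 21.4 and 61.6 CPM in WT at e13.5, while the cartilage matrix gene Matn1 had at most 0.198 CPM and the bone gene Bglap 0 in all libraries. The part of these cells in the collagen values was not tested.

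In the genes of types I and III, which make up most of the fibres of the heart, e13.5 library 2 held 3.69 to 21.6 times the level of library 1. Col1a1 (ENSMUSG00000001506, chromosome 11, 94936224 to 94953042), which encodes the alpha 1 chain of type I collagen, had 127 and 62 CPM in KO adults and 64.7 and 30.6 CPM in WT adults, against 64.8 and 1399 CPM in KO and 188 and 1191 CPM in WT at e13.5. Col1a2, which encodes the alpha 2 chain, had 152 and 77.5 CPM in KO adults and 109.9 and 62.8 CPM in WT adults, against 48.1 and 664 CPM in KO and 161 and 593 CPM in WT at e13.5. Library 2 at e13.5 thus lay above every adult library, whereas KO e13.5 library 1 lay within or below the adult range. Within WT Col1a1 fell (log2 -3.86 ± 1.30, adjusted p = 0.0409), a call lost without any adult library or WT e13.5 library 2 (adjusted p up to 0.181), and with the library number as a block (adjusted p = 0.0725 over all libraries and 0.0746 within each age). Averaged over genotypes Col1a1 was called lower in adults (log2 -3.40 ± 0.90, adjusted p = 0.00923) and so was Col1a2 (log2 -1.88 ± 0.73, adjusted p = 0.0466). Without the 2 e13.5 libraries of number 2 both calls were lost, with log2 -0.80 ± 0.37 for Col1a1 (adjusted p = 0.0879) and 0.10 ± 0.33 for Col1a2 (adjusted p = 0.805). With the library number as a block within each age they were lost too (-0.35 ± 0.40, adjusted p = 0.469, and 0.48 ± 0.43, adjusted p = 0.355). That block compares library 1 levels and so largely repeats leaving out the number 2 libraries. Col1a2 was also lost with a block over all libraries (-1.41 ± 0.81, adjusted p = 0.154). Single libraries also ended the call, namely KO adult library 2 for Col1a1 (adjusted p = 0.0555) and any adult library or either of the e13.5 libraries of number 2 for Col1a2 (adjusted p = 0.0678 to 0.468). Col3a1, the gene of type III collagen, had 333 and 171 CPM in KO adults and 141 and 73.6 CPM in WT adults, against 58.1 and 545 CPM in KO and 91.1 and 1283 CPM in WT at e13.5. It did not pass (log2 -1.47 ± 0.82, adjusted p = 0.146), and without the e13.5 libraries of number 2 its direction turned, to 1.10 ± 0.36 (adjusted p = 0.0304). Without those of number 1 it was -2.27 ± 0.33 (adjusted p = 0.000922).

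Ratios between genes within a library do not depend on its total. Per kb, Col3a1 over Col1a1 was 2.79 and 2.94 in KO adults and 2.32 and 2.57 in WT adults, against 0.957 and 0.415 in KO and 0.517 and 1.15 in WT at e13.5. All adult libraries thus held over 2 times as much Col3a1 as Col1a1 per kb, and no e13.5 library did. Col1a1 over Col1a2 was 0.756 and 0.722 in KO adults and 0.531 and 0.439 in WT adults, against 1.21 and 1.90 in KO and 1.05 and 1.81 in WT at e13.5. Type I molecules contain more alpha 1 than alpha 2 chains, yet the Col1a1 transcript was the less abundant per kb in every adult library. No test was made of these ratios. The other fibrillar genes tested did not pass in the main fit. Averaged over genotypes Col5a2 passed in several other settings, among them DESeq2, median-of-ratios scaling and upper quartile scaling. Col5a1 passed there with the library number as a block within each age. Col5a1 lay between 15 and 141 CPM, Col5a2 between 18.3 and 194.9 CPM and Col27a1 between 1.61 and 6.29 CPM over the 8 libraries, with log2 fold changes of -0.01 ± 0.59, -1.52 ± 0.63 and -0.22 ± 0.51 averaged over genotypes.

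Among the 6 type IV genes, Col4a3 and Col4a4 rose and Col4a6 fell with age in both genotypes, while Col4a1, Col4a2 and Col4a5 rose in KO and did not pass in WT with all libraries, although all 3 passed there without WT e13.5 library 2. The 6 genes lie as 3 pairs on chromosomes 8, 1 and X, head to head, so that both genes of a pair are read away from the stretch between their starts. The annotated starts of Col4a1 and Col4a2 lie at 11312826 and 11312805 on chromosome 8, and their first exons overlap by 22 bases on opposite strands. Those of Col4a4 and Col4a3 lie 72 bases apart on chromosome 1 (82586849 and 82586921), and those of Col4a6 and Col4a5 lie 1309 bases apart on chromosome X (141474076 and 141475385). The start regions are shown because members of the first 2 pairs moved alike and members of the third did not. They are RefSeq windows of 250 bases before to 50 after a start on GRCm38.p6, the build of the count table, written 5′ to 3′ on the strand of the gene, with 3 motifs in capitals on either strand: CCAAT (the CCAAT box), GGGCGG (the GC box) and TATAAA (the TATA box).
Col4a1 (chr8:11312777-11313076, minus strand): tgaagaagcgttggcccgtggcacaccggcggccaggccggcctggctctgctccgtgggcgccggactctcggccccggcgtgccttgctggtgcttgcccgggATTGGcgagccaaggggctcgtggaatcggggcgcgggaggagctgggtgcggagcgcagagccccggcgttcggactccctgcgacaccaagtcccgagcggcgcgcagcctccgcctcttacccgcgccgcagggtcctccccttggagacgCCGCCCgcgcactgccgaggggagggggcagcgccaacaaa
Col4a2 (chr8:11312555-11312854, plus strand): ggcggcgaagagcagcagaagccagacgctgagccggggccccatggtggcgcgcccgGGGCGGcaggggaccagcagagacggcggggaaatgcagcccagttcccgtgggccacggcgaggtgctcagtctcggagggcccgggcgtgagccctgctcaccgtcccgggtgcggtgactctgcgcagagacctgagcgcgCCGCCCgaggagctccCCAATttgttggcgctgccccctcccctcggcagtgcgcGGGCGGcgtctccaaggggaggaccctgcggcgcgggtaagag
Col4a4 (chr1:82586800-82587099, minus strand): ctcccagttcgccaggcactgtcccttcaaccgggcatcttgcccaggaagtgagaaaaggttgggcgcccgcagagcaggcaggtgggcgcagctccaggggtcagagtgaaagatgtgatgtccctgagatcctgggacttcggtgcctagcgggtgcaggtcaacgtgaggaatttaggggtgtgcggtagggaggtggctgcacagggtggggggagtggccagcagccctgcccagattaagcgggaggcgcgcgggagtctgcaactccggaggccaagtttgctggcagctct
Col4a6 (chrX:141474027-141474326, minus strand): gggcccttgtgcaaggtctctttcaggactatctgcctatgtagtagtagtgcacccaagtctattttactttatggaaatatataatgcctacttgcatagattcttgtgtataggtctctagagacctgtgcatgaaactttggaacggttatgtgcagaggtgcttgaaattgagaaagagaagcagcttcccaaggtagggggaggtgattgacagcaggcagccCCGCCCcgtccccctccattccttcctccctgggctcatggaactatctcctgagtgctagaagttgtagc
Col4a5 (chrX:141475169-141475468, plus strand): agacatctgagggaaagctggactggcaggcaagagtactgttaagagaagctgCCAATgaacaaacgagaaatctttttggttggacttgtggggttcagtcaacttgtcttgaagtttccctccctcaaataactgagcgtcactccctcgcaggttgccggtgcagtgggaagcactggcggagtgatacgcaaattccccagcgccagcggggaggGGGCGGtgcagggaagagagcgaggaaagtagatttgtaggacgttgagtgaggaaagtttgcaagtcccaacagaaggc

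In these letters, the windows of Col4a1 and Col4a2 share 78 bases. They hold 1 CCAAT each, and 1 and 3 GGGCGG on either strand. The GGGCGG of Col4a1 lies in the shared bases and is also 1 of the 3 of Col4a2. The window of Col4a4 also covers the annotated start of Col4a3 and holds none of the 3 motifs. Col4a6 and Col4a5 have separate windows, each with 1 GGGCGG, and Col4a5 has 1 CCAAT as well. Over the 38 windows of the 35 collagen genes matched in RefSeq, CCAAT stood in 13 (34.2%), GGGCGG in 23 (60.5%) and TATAAA in 5 (13.2%). Of all 32851 windows the shares were 37.4%, 35.7% and 13.6%. A match is a description of letters and not a site.

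Col4a1 and Col4a2 encode the chains of the common type IV network found in nearly all basement membranes. Col4a1 had 1076 and 567 CPM in KO adults and 498 and 328 CPM in WT adults, against 119.8 and 157 CPM in KO and 97.5 and 684 CPM in WT at e13.5. Col4a2 had 827 and 449.7 CPM in KO adults and 409 and 269.8 CPM in WT adults, against 79.4 and 135 CPM in KO and 99.7 and 399 CPM in WT at e13.5. In KO all adult libraries lay above all e13.5 libraries for both genes, and in WT the adult values lay between those of the 2 e13.5 libraries, except Col4a2 in WT adult library 1. Both rose with age in KO, by log2 2.57 ± 0.81 for Col4a1 (adjusted p = 0.0296) and 2.57 ± 0.69 for Col4a2 (adjusted p = 0.0159). The KO call of Col4a1 was lost without any 1 of the 4 KO libraries (adjusted p up to 0.141), and that of Col4a2 without KO adult library 1 or KO e13.5 library 1 (up to 0.0906). In WT the values were 0.08 ± 0.76 and 0.44 ± 0.66 (adjusted p = 0.944 and 0.616). Without WT e13.5 library 2 both passed in WT too (2.10 ± 0.65, adjusted p = 0.025, for Col4a1 and 1.78 ± 0.65, adjusted p = 0.0469, for Col4a2). Averaged over genotypes Col4a2 passed (log2 1.51 ± 0.47, adjusted p = 0.0202) and Col4a1 did not (log2 1.33 ± 0.55, adjusted p = 0.0596), except without WT e13.5 library 2 (2.32 ± 0.43, adjusted p = 0.00076) and in other settings. The call of Col4a2 was lost without KO adult library 1 or WT adult library 1 (adjusted p = 0.0756 and 0.0644). The difference between genotypes was tested as an interaction and did not pass (adjusted p = 1 for both). Col4a1 over Col4a2 per kb stayed within 0.953 to 1.67 in the 8 libraries.

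Col4a3 and Col4a4 encode chains of the network known from the kidney glomerulus, where Col4a5 provides the third chain. Col4a3 had 5.86 and 3.65 CPM in KO adults and 4.37 and 4.61 CPM in WT adults, against 0.188 and 0.673 CPM in KO and 0.783 and 1.14 CPM in WT at e13.5. Col4a4 had 11.8 and 8.02 CPM in KO adults and 9.2 and 8.68 CPM in WT adults, against 0.688 and 0.989 CPM in KO and 0.415 and 1.07 CPM in WT at e13.5. Every adult library lay above every e13.5 library for both, with log2 fold changes of 2.80 ± 0.51 (adjusted p = 0.0012) and 3.55 ± 0.45 (adjusted p = 0.000149) averaged over genotypes. These calls held in every setting, although within WT Col4a3 was lost without either of the adult libraries or e13.5 library 1 of WT (adjusted p up to 0.12). Per kb Col4a4 exceeded Col4a3 by 1.59 to 1.86 times in the adult libraries. In Col4a3, 5.65% of the exon bases overlap the noncoding gene C430014B12Rik on the opposite strand, and the strand setting of the counting is not given in the sources used here.

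Col4a5 and Col4a6, the pair on chromosome X, parted with age. Col4a5 (chromosome X, 141475385 to 141689234) had 31.2 and 61.2 CPM in KO adults and 51.7 and 54.7 CPM in WT adults, against 6.94 and 8.27 CPM in KO and 7.1 and 74.3 CPM in WT at e13.5. Col4a6 (chromosome X, 141165403 to 141474076) had 0.659 and 0.464 CPM in KO adults and 1.51 and 0.482 CPM in WT adults, against 6.25 and 9.5 CPM in KO and 6.18 and 27.9 CPM in WT at e13.5. Col4a6 was lower in every adult library than in every e13.5 library (log2 -3.93 ± 0.61, adjusted p = 0.000499), and its call averaged over genotypes held in every setting. Within a genotype it was lost without either of the KO adult libraries (adjusted p up to 0.0733) or without WT adult library 2 (0.0508). Col4a5 rose in KO (log2 2.60 ± 0.88, adjusted p = 0.0383), a call lost without any 1 of the 4 KO libraries (up to 0.181), and did not pass in WT, where e13.5 library 2 stood above both adult libraries (log2 0.39 ± 0.82, adjusted p = 0.733). Without that library it passed in WT (2.93 ± 0.63, adjusted p = 0.00414). Per kb, Col4a5 over Col4a6 was 48.2 and 134 in KO adults and 34.7 and 115 in WT adults, against 1.13 and 0.886 in KO and 1.17 and 2.71 in WT at e13.5. The ratio was thus far higher in all 4 adult libraries than in any e13.5 library, of which WT library 2 stood highest at 2.71.

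**Figure D4:**
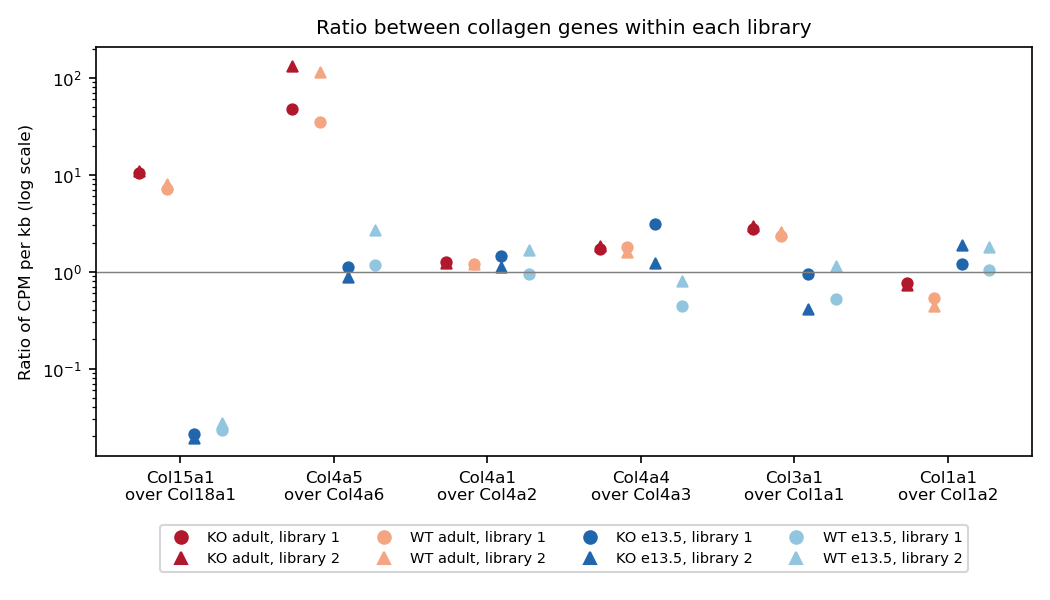
Ratio of CPM per kb (log scale) between 2 collagen genes within each library, for 6 gene pairs on the x axis, with circles for library 1 and triangles for library 2. Col15a1 over Col18a1 and Col4a5 over Col4a6 separate the adult from the e13.5 libraries, while Col4a1 over Col4a2 stays between 0.953 and 1.67.

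The 2 multiplexin genes Col15a1 and Col18a1 changed in opposite directions with age. Their products lie at basement membranes and carry related C-terminal domains, that of Col18a1 being the source of endostatin. Col15a1 (ENSMUSG00000028339, chromosome 4, 47208161 to 47313167), the loss of which causes a muscle disease in mice, had 144 and 88 CPM in KO adults and 86.5 and 50.1 CPM in WT adults, against 1.5 and 6.09 CPM in KO and 1.8 and 10.8 CPM in WT at e13.5. Col18a1 (ENSMUSG00000001435, chromosome 10, 77052178 to 77166548) had 14.8 and 8.62 CPM in KO adults and 13 and 6.68 CPM in WT adults, against 76.1 and 342 CPM in KO and 83.9 and 422 CPM in WT at e13.5. Neither gene had overlapping ages. Averaged over genotypes Col15a1 rose (log2 4.17 ± 0.65, adjusted p = 0.000532) and Col18a1 fell (log2 -4.42 ± 0.68, adjusted p = 0.000469), and both calls held in every setting. Within a genotype, Col18a1 was lost without KO adult library 2 (adjusted p = 0.078) and Col15a1 without WT adult library 1 (0.0601). Per kb, Col15a1 over Col18a1 was 10.5 and 11.0 in KO adults and 7.21 and 8.12 in WT adults, against 0.0213 and 0.0193 in KO and 0.0232 and 0.0276 in WT at e13.5. The 2 libraries of a group, including the e13.5 ones that differed in collagen level, gave nearly the same ratio. The ratio was described and not tested.

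The type IX genes and Col12a1, which belong to the collagens that sit on the surface of fibrils, fell in adults. Of the 8 fibril-associated genes tested, 4 were lower, 0 higher and 4 did not pass, averaged over genotypes. Of all genes tested, 32.6% were called lower and 27% higher. Col9a1, whose product decorates type II fibrils, had 0 and 0 CPM in KO adults and 0 and 0 CPM in WT adults, against 7.75 and 40.6 CPM in KO and 14.2 and 32.7 CPM in WT at e13.5. By the e13.5 mean it was at least 244-fold lower in KO adults and at least 248-fold lower in WT adults (adjusted p = 0.00141 and 0.00153). Col9a2 had 0 and 0 CPM in KO adults and 0.175 and 0.138 CPM in WT adults, against 1.0 and 22.6 CPM in KO and 2.77 and 19.6 CPM in WT at e13.5. Col9a3 had 0.329 and 0.265 CPM in KO adults and 0 and 0.482 CPM in WT adults, against 8.0 and 47.1 CPM in KO and 12.3 and 27.9 CPM in WT at e13.5. Like Col2a1, all 3 type IX genes were at or near 0 in adults and at 1 CPM or more in every e13.5 library. Their calls averaged over genotypes held in every setting, with log2 -6.46 ± 0.88 for Col9a3 (adjusted p = 0.000244) and -6.09 ± 1.65 for Col9a2 in WT (adjusted p = 0.0193). In KO adults Col9a2 was at least 119-fold lower by the e13.5 mean (adjusted p = 0.00873). That mean was carried by library 2, with 22.6 CPM against 1.0 CPM in library 1. Within a genotype Col9a2 was lost without either of its adult libraries (adjusted p up to 0.0594 in KO and 0.0867 in WT). Of the exon bases of Col9a3, 6.07% overlap Tcfl5 on the opposite strand. Col12a1, which is bound to type I fibrils in tendon and other dense tissue, had 1.19 and 0.331 CPM in KO adults and 1.34 and 0.413 CPM in WT adults, against 12.9 and 18.8 CPM in KO and 15.1 and 31.5 CPM in WT at e13.5. It was lower in every adult library (log2 -4.54 ± 0.57, adjusted p = 0.000146), its calls held in every setting in both genotypes, and its e13.5 library 2 held 1.46 times the level of library 1 in KO and 2.09 times in WT.

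The 4 fibril-associated genes that did not pass were Col14a1, with 4.19 to 20.7 CPM over the 8 libraries, Col16a1 with 2.63 to 46.2 CPM, Col20a1 with 0 to 0.928 CPM and Col22a1 with 0.291 to 0.795 CPM. Their log2 fold changes averaged over genotypes were 0.50 ± 0.51, -1.47 ± 0.72, 2.51 ± 0.99 and -0.21 ± 0.58. In other settings of this comparison some passed, among them Col20a1 with median-of-ratios scaling, DESeq2 and the block over all libraries. Col16a1 passed with DESeq2 and Col14a1 with the block within each age. Col20a1 had 0 counts in library 1 of both e13.5 groups.

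Type VI collagen forms beaded filaments close to the surface of muscle cells. Of its 4 genes tested, Col6a3 passed as higher averaged over genotypes, beside 27% of all genes tested. Col6a3 had 61.3 and 52.4 CPM in KO adults and 37.7 and 21.4 CPM in WT adults, against 3.0 and 13.1 CPM in KO and 4.15 and 35.6 CPM in WT at e13.5. It rose in KO (log2 2.82 ± 0.96, adjusted p = 0.0395), where the ages did not overlap, and did not pass in WT (log2 0.57 ± 0.90, adjusted p = 0.639). Without WT e13.5 library 2 it passed in WT (2.85 ± 0.82, adjusted p = 0.0183), and the interaction did not pass (adjusted p = 1). Averaged over genotypes its call (log2 1.69 ± 0.65, adjusted p = 0.0455) was lost without KO adult library 1, KO adult library 2, WT adult library 1 or KO e13.5 library 1 (adjusted p = 0.087 to 0.105) and with a stricter filter (0.0541). Its KO call was lost without either of the KO adult libraries or KO e13.5 library 1 (up to 0.138). Col6a1 lay between 7.31 and 135.5 CPM, Col6a2 between 20.3 and 133 CPM and Col6a6 between 0.938 and 13.1 CPM over the 8 libraries. Their log2 fold changes were 0.49 ± 0.71, -0.16 ± 0.53 and 1.33 ± 0.69. Averaged over genotypes Col6a6 passed with DESeq2, and Col6a1 and Col6a6 with the block within each age.

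The short-chain genes of type VIII collagen, which forms open lattices under endothelia, went opposite ways. Col8a1 had 16.5 and 15.4 CPM in KO adults and 18.2 and 10.7 CPM in WT adults, against 3.06 and 7.08 CPM in KO and 2.49 and 2.51 CPM in WT at e13.5. It rose in both genotypes, by 1.64 ± 0.54 in KO (adjusted p = 0.0353) and 2.53 ± 0.56 in WT (adjusted p = 0.0071), with no overlap between ages, and averaged over genotypes the call held in every setting. Within KO it was lost without any adult library of either genotype or KO e13.5 library 1, and within WT without WT adult library 1. The KO call was also lost with upper quartile scaling (adjusted p = 0.0505) and with only the libraries of the comparison (0.0539). Col8a2 had 0.132 and 0 CPM in KO adults and 0.466 and 0 CPM in WT adults, against 0.438 and 5.46 CPM in KO and 1.01 and 3.24 CPM in WT at e13.5. The 2 counts in KO adults against 145 at e13.5 gave a ratio of 53.2, with counting bounds of 14.5 and 443 (adjusted p = 0.0352), while WT missed (adjusted p = 0.123). The KO call was lost without KO adult library 1, KO adult library 2, KO e13.5 library 2 or both e13.5 libraries of number 2. It was also lost with the library number as a block within each age (log2 -2.34 ± 1.30, adjusted p = 0.173). Averaged over genotypes its call (log2 -4.24 ± 1.16, adjusted p = 0.0107) was lost without KO adult library 2 (adjusted p = 0.0511), without both e13.5 libraries of number 2 (0.139) and with the block within each age (0.174).

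All 4 transmembrane collagen genes were lower in adults averaged over genotypes, beside 32.6% of all genes tested. Col13a1, which is known from neuromuscular junctions and cell adhesion sites, had 0.791 and 0.663 CPM in KO adults and 0.582 and 1.52 CPM in WT adults, against 2.19 and 21.6 CPM in KO and 12.5 and 20.8 CPM in WT at e13.5. Col23a1 had 3.1 and 1.92 CPM in KO adults and 2.44 and 1.58 CPM in WT adults, against 9.06 and 3.56 CPM in KO and 6.91 and 6.68 CPM in WT at e13.5. Col25a1, which in mice is needed for motor nerves to reach muscle, had 0.132 and 0.398 CPM in KO adults and 0.582 and 0.275 CPM in WT adults, against 3.06 and 1.74 CPM in KO and 1.38 and 5.23 CPM in WT at e13.5. None of the 3 had overlapping ages, and the log2 fold changes were -4.01 ± 0.71, -1.54 ± 0.44 and -3.03 ± 0.67 (adjusted p = 0.00111, 0.0128 and 0.00356). The calls of Col13a1 and Col25a1 held in every setting, and that of Col23a1 was lost without KO adult library 2, without WT adult library 2 (adjusted p = 0.0562 and 0.0668) and without both e13.5 libraries of number 1 (0.0562). Within KO, Col13a1 lost its call without KO adult library 1 (adjusted p = 0.078), KO adult library 2 (0.0945) or KO e13.5 library 2 (log2 -1.59 ± 0.72, adjusted p = 0.103). Col25a1 lost its KO call without either of the KO adult libraries or KO e13.5 library 1, and with the block within each age (adjusted p = 0.0765). Within WT, Col13a1 was lost without WT adult library 1 (adjusted p = 0.0897). Col25a1 was lost in WT without either of the WT adult libraries, WT e13.5 library 2 (log2 -1.64 ± 1.05) or both e13.5 libraries of number 2. The block within each age ended it too (adjusted p = 0.107). The WT call of Col23a1 was lost without any 1 of the 4 adult libraries, either of the WT e13.5 libraries or both e13.5 libraries of number 1. It was lost too without a filter on low counts (adjusted p = 0.0612) and with median-of-ratios scaling (0.0535). Leaving out mitochondrial, haemoglobin and ribosomal RNA genes also ended it (0.0509). In KO Col23a1 did not pass, except without KO e13.5 library 2 (-1.85 ± 0.62, adjusted p = 0.0375) or both e13.5 libraries of number 2 (adjusted p = 0.0138). Col17a1, a protein of the junctions that anchor skin cells, ranged from 0 to 0.0663 CPM in adults and from 0.277 to 0.968 CPM at e13.5. It was at least 8.57-fold lower in WT adults (adjusted p = 0.0144) and missed in KO (2 counts against 20, adjusted p = 0.092). The WT call was lost without either of the WT adult libraries, WT e13.5 library 1 or both e13.5 libraries of number 1 (adjusted p up to 0.0987 over these settings), and the call averaged over genotypes without both e13.5 libraries of number 1 (0.051).

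Of the 3 remaining genes tested, Col26a1 fell, Col28a1 rose and Col7a1 did not pass, beside 32.6% of all genes called lower and 27% higher. Col26a1 (ENSMUSG00000004415, chromosome 5, 136741759 to 136883209) had 0.0659 and 0.199 CPM in KO adults and 0.175 and 0.413 CPM in WT adults, against 9.94 and 31.1 CPM in KO and 27.7 and 25.9 CPM in WT at e13.5. It had the smallest p of the family for age (log2 -6.86 ± 0.60, adjusted p = 2.17e-05), its calls held in every setting in both genotypes, and its WT e13.5 library 2 held 0.933 times the level of library 1. Col28a1, which in mice is found around peripheral nerves and their Schwann cells, ranged from 0.593 to 2.34 CPM in adults and from 0 to 0.172 CPM at e13.5. It rose in WT (log2 4.16 ± 1.06, adjusted p = 0.0131) and in KO (21 counts against 2, ratio 14.3, counting interval 3.5 to 126, adjusted p = 0.0302). Both calls were lost without either of their own adult libraries or e13.5 library 1, and that in KO also without either of the WT adult libraries (adjusted p up to 0.114 in KO and 0.0715 in WT), while the call averaged over genotypes held. Of the 8 Schwann cell and neural crest markers, 2 of the 4 tested rose averaged over genotypes, beside 27% of all genes. None of the 8 was at 0 in all libraries. The 8 summed to 24.2 and 31.7 CPM in KO adults and 25.4 and 28.2 CPM in WT adults. At e13.5 they summed to 2.69 and 7.99 CPM in KO and 3.27 and 14.3 CPM in WT. Their part in the value of Col28a1 was not tested. Col7a1, the gene of the anchoring fibrils of skin, lay between 0.188 and 1.13 CPM.

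The 4 genes that did not pass the filter were Col10a1, the collagen of maturing cartilage, with 0 counts in all libraries, Col19a1 with 25 counts in all, Col6a5 with 13 and Col6a4 with 4. The highest level among them was 0.594 CPM, for Col19a1 in KO e13.5 library 2.

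Collagen chains pass through a set of enzymes and chaperones before they leave the cell, are trimmed and crosslinked outside it, and are bound by regulators and receptors. Of the 23 genes of chain modification and folding, 4 were higher and 8 lower in adults averaged over genotypes. Serpinh1, the collagen chaperone, had 299 and 317 CPM in KO adults and 282 and 234 CPM in WT adults, against 742 and 886 CPM in KO and 1225 and 1098 CPM in WT at e13.5 (log2 -1.79 ± 0.30, adjusted p = 0.00085). P4ha3, a prolyl hydroxylase subunit, was nearly absent from adults, with 0.132 and 0.199 CPM in KO adults and 0.0582 and 0 CPM in WT adults, against 9.0 and 27.2 CPM in KO and 6.41 and 14 CPM in WT at e13.5 (log2 -7.40 ± 0.71, adjusted p = 3.44e-05). Fkbp10 and Ppib, which assist folding in the endoplasmic reticulum, fell as well, by 3.08 ± 0.37 and 1.97 ± 0.31 on the log2 scale (adjusted p = 0.000115 and 0.000561). In contrast, the collagen galactosyltransferase genes Colgalt1 (log2 2.10 ± 0.51) and Colgalt2 (2.01 ± 0.73), the export receptor gene Mia3 (0.95 ± 0.32) and the ion channel gene Tmem38b (1.56 ± 0.29) rose. Background shares were 27% and 32.6%, as above.

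Of the 8 genes of propeptide removal, 4 rose and 1 fell, beside 27% and 32.6% of all genes tested. The same shares stand beside the crosslinking genes below. Bmp1, the procollagen C-proteinase, had 26.7 and 26.4 CPM in KO adults and 27.9 and 41.5 CPM in WT adults, against 8.63 and 10.4 CPM in KO and 8.53 and 10.6 CPM in WT at e13.5 (log2 1.67 ± 0.31, adjusted p = 0.0013). Its enhancer genes went opposite ways, with Pcolce2 at 11.7 and 9.94 CPM in KO adults and 16.8 and 13.2 CPM in WT adults, against 1.0 and 1.23 CPM in KO and 0.415 and 2.31 CPM in WT at e13.5 (log2 3.35 ± 0.52, adjusted p = 0.000512). Pcolce had 47 and 26.3 CPM in KO adults and 40.5 and 27.8 CPM in WT adults, against 143 and 102 CPM in KO and 163 and 83.8 CPM in WT at e13.5 (log2 -1.79 ± 0.36, adjusted p = 0.0022). Adamts2, the procollagen N-proteinase, and Tll2, a relative of Bmp1, also rose (1.85 ± 0.44 and 4.08 ± 1.0). Among the 5 crosslinking genes of the lysyl oxidase family 0 rose and 3 fell, namely Loxl2, Lox and Loxl1 (log2 -2.63 ± 0.44, -3.60 ± 0.83 and -1.48 ± 0.42). Lox had 1.91 and 2.65 CPM in KO adults and 2.85 and 1.03 CPM in WT adults, against 3.19 and 32 CPM in KO and 9.08 and 65.4 CPM in WT at e13.5, so that e13.5 library 2 stood above library 1 as it did for type I collagen.

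Of 16 fibril regulators tested, 6 rose and 6 fell, beside 27% and 32.6% of all genes tested. Tnxb, the gene of the matrix protein tenascin X, had 121 and 89.7 CPM in KO adults and 168 and 87.2 CPM in WT adults, against 0.438 and 4.43 CPM in KO and 1.47 and 3.75 CPM in WT at e13.5 (log2 5.50 ± 0.69, adjusted p = 0.000152). The small leucine-rich proteoglycan genes Ogn (2.71 ± 0.36), Prelp (2.48 ± 0.57) and Aspn (1.52 ± 0.38) rose too, while their relative Fmod fell (-2.96 ± 0.47). Postn, which is also one of the cushion and valve markers, had 23.3 and 16.2 CPM in KO adults and 27 and 18.3 CPM in WT adults, against 123 and 694 CPM in KO and 192 and 383 CPM in WT at e13.5 (log2 -4.02 ± 0.57, adjusted p = 0.0003). Thbs1 and Sparc fell by 3.77 ± 0.70 and 1.90 ± 0.40 on the log2 scale. Of 15 breakdown genes tested, 4 rose and 7 fell, beside the same shares of all genes. Among the inhibitors of matrix metalloproteinases, Timp4 had 18.1 and 32.1 CPM in KO adults and 51.1 and 43.5 CPM in WT adults, against 0.25 and 0.475 CPM in KO and 0.553 and 0.31 CPM in WT at e13.5 (log2 6.41 ± 0.45, adjusted p = 1.16e-05), and Timp2 (3.42 ± 0.34) and Timp3 (1.16 ± 0.40) rose as well. Timp1 fell, with 2.44 and 0.729 CPM in KO adults and 0.291 and 0.413 CPM in WT adults, against 15.6 and 14.2 CPM in KO and 18.9 and 12.9 CPM in WT at e13.5 (log2 -4.35 ± 0.48, adjusted p = 7.60e-05). The proteinase genes Mmp16 (-5.82 ± 0.96), Mmp2 (-1.94 ± 0.39) and Ctsk (-2.41 ± 0.51) fell, and the proteinase gene Mmp3 rose, with 1.71 and 1.33 CPM in KO adults and 1.4 and 0.758 CPM in WT adults, against 0.188 and 0 CPM in KO and 0 and 0 CPM in WT at e13.5 (adjusted p = 0.00221).

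Of 8 collagen receptor genes tested, the inhibitory immune receptor gene Lair1 rose (log2 1.41 ± 0.55) and the integrin gene Itga2 (-4.20 ± 0.59) and the receptor kinase gene Ddr1 (-2.16 ± 0.36) fell. Of the 19 basement membrane partners, 8 rose and 2 fell. Beside the receptors and these partners stand 27% of all genes tested called higher and 32.6% called lower. The laminin genes Lama2, Lama5, Lamb2 and Lamc1 rose, by 3.37 ± 0.40, 3.21 ± 0.43, 3.56 ± 0.48 and 2.72 ± 0.38. Lama2, the laminin chain of muscle basement membranes, had 122 and 176 CPM in KO adults and 196 and 133 CPM in WT adults, against 10.1 and 12.9 CPM in KO and 11.2 and 28.3 CPM in WT at e13.5. Every adult library lay above every e13.5 library, as for Col4a3 and Col4a4. Lama1, a laminin chain of early embryos, fell (-3.02 ± 1.12), as did Sparc, which stands in both lists.

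The comparison of KO with WT asked whether collagen transcripts differ without LncSync. In adults 0 of the 40 collagen genes were called (edgeR, adjusted as above) and 0 with DESeq2, and 8 of 16623 genes were called in all, a share of 0.0481%. At an unadjusted p below 0.05 there was 1 collagen gene, beside 2.27% of all genes. At e13.5 0 of 40 were called as well, and 0 with DESeq2, beside 12 of 16623 in all, a share of 0.0722%. At an unadjusted p below 0.05 there was again 1, beside 2.39% of all genes. In adults 24 fold changes were positive and 14 negative, the other 2 genes being at 0 in both groups, with a median log2 of 0.20 beside 0.01 for all genes tested. Without KO adult library 1 these were 19 and 18, with a median of 0. At e13.5 11 were positive and 29 negative, with a median of -0.65 beside -0.07 for all genes. Without WT e13.5 library 2 this turned to 33 positive and 7 negative, with a median of 0.92 beside 0.07 for all genes, and without KO e13.5 library 2 it was 3 and 37, with a median of -2.09. In adults the 2 genotypes did not overlap for 14 of 40 genes, against 27.9% of all genes tested, and at e13.5 for 4 of 40, against 15.4%. In adults both KO libraries lay above both WT libraries for Col3a1, Col4a1, Col4a2, Col5a1, Col5a3, Col6a3, Col6a6, Col15a1, Col17a1 and Col22a1, and below for Col9a2, Col11a2, Col27a1 and Col28a1. At e13.5 KO lay above WT for Col8a1 and below WT for Col4a3, Col7a1 and Col22a1. Under the alternatives 1 call was made, of Col4a5 as lower in KO at e13.5, without a filter on low counts (adjusted p = 0.0231) and without WT e13.5 library 1 (adjusted p = 0.0432).

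**Figure D5:**
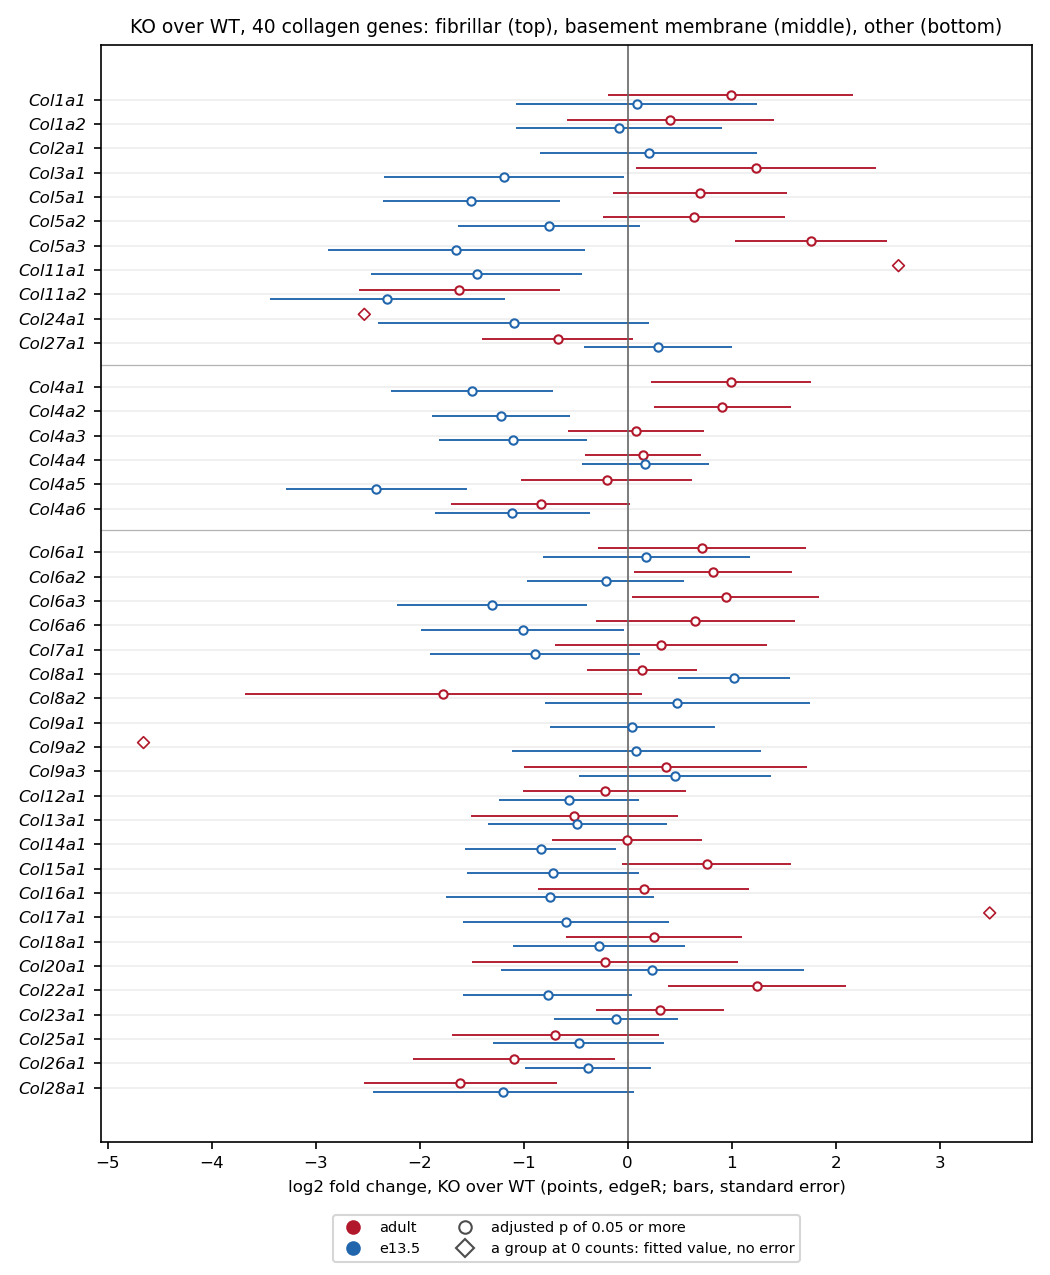
Log2 fold change of KO over WT (x axis) for the 40 tested collagen genes, in adults (upper symbol) and at e13.5 (lower symbol), with standard errors; diamonds are fitted values where a group had 0 counts, and Col2a1 and Col9a1, at 0 in both adult groups, have no adult symbol. No gene has an adjusted p below 0.05 at either age, and the type IV genes Col4a1, Col4a2 and Col4a5 lie left of 0 at e13.5. Only the fit with all libraries is drawn, and without WT e13.5 library 2 these genes turned positive.

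The adult gene of smallest p was Col5a3, at 34.0 and 26.2 CPM in KO adults against 10.9 and 6.82 CPM in WT adults. The groups did not overlap, but the gene missed the threshold (log2 1.76 ± 0.73, unadjusted p = 0.0367, adjusted p = 1). The next were Col28a1, with 0.593 and 0.795 CPM in KO against 1.92 and 2.34 CPM in WT (log2 -1.61 ± 0.93, unadjusted p = 0.115, adjusted p = 1), and Col11a2, with 1.19 and 3.38 CPM in KO against 4.13 and 9.92 CPM in WT (log2 -1.62 ± 0.97, unadjusted p = 0.126, adjusted p = 1). Among the main genes, Col4a1 had 1076 and 567 CPM in KO adults against 498 and 328 CPM in WT adults, a log2 fold change of 0.99 ± 0.77. Col3a1 had 333 and 170.9 CPM in KO adults against 141 and 73.6 CPM in WT adults (1.23 ± 1.15). Collagen genes together took 0.204% ± 0.068 of the counts in KO adults and 0.122% ± 0.0408 in WT adults (SD, n = 2), and KO library 2 and WT library 1 nearly coincided at 0.156% and 0.151%. Endothelial markers had fold changes of the same sign, 15 of 17 being positive,  and sums of 2713 and 1462 CPM in KO against 1645 and 1225 CPM in WT. Of the 15 fibroblast markers 14 were positive, with sums of 1878 and 1185 CPM in KO and 1627 and 937 CPM in WT, and of the 12 leukocyte markers all 12. Smooth muscle and pericyte markers were 10 positive and 2 negative, and cushion and valve markers 7 and 4. Cardiomyocyte markers were 6 and 6, and epicardial markers 1 positive and 9 negative. Over all 16623 genes tested, 8921 were positive. No marker of these lists passed or was at 0 in all libraries, and their part in the collagen values was not tested.

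At e13.5 Col4a5 had the smallest p, with 6.94 and 8.27 CPM in KO against 7.10 and 74.3 CPM in WT. Its difference rested on WT library 2 and missed the threshold (log2 -2.42 ± 0.87, unadjusted p = 0.0199, adjusted p = 1). Without that library the log2 fold change was 0.12 ± 0.55 (adjusted p = 1). Col11a2 (log2 -2.31 ± 1.13, unadjusted p = 0.0688, adjusted p = 1) and Col4a1 (log2 -1.50 ± 0.78, unadjusted p = 0.0837, adjusted p = 1) followed. In Col4a1 too the KO libraries (119.8 and 156.6 CPM) lay between WT library 1 (97.5 CPM) and WT library 2 (684 CPM). Collagen genes took 0.310% ± 0.353 of the counts in KO and 0.455% ± 0.491 in WT at e13.5 (SD, n = 2), so that a difference between genotypes was not detectable over the spread between libraries.

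The interaction of genotype and age asked whether the change with age differed between KO and WT. No collagen gene passed (0 of 40 with edgeR and with DESeq2), and 0 of all 16623 genes passed with edgeR, a share of 0%. At an unadjusted p below 0.05 there were 3 collagen genes, beside 265 of all genes (1.59%). The 3 genes were Col5a3 (log2 3.41 ± 1.43, unadjusted p = 0.0393, adjusted p = 1), Col4a1 (log2 2.49 ± 1.09, unadjusted p = 0.0467, adjusted p = 1) and Col4a2 (log2 2.13 ± 0.94, unadjusted p = 0.0472, adjusted p = 1). Positive values mean that adult over e13.5 was larger in KO. For the type IV genes called with age in KO and not in WT, a difference between the genotypes was therefore not shown.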

How the data were processed

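RNA of 8 heart samples labelled cardiomyocyte was amplified by the authors from 200 ng of total RNA with Smart-seq2 and made into libraries with a SMARTer kit, per the labels' protocols. The deposited table holds expected counts per gene, which the authors made with RSEM on mm10, per the submitters' processing notes. They are whole numbers with differing totals and were analysed as deposited, although the table's name speaks of normalised input. Neither aligner, annotation nor RSEM version is given in the sources used here.

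Identifiers were joined to GENCODE vM21 (GRCm38), which covered 51633 of 51826. In R 4.3.3, edgeR 4.0.16 (filterByExpr, TMM, quasi-likelihood, 4 group means, all 8 libraries, 4 residual degrees of freedom) tested adult over e13.5 in KO, in WT and averaged, KO over WT at each age, and the interaction. Tests were two-sided and adjusted by Benjamini-Hochberg over 16623 genes. The script was tested on simulated data. Folds against a group at 0 set the mean of the other group against 3 counts over the libraries at 0. They do not cover the spread of that other group. Levels were compared between genes per kb of the longest protein-coding transcript. limma 3.58.1 was loaded with edgeR, DESeq2 1.42.0 served as an alternative test, and Python 3.11.15, matplotlib 3.10.9 and BLAST 2.17.0 served plots and sequences. BLAST found near-identical copies (95% identity or more across 50% or more of a transcript) for 0 of 44 members.

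The members and lists were chosen with earlier results of these data known. Per-library values are given for the 25 called members of highest CPM per kb and Col3a1, ranges for the rest, the 3 of smallest p where none was called, and up to 4 called partners per list and direction. Other genes were named after their values were seen. Alternatives were other filters, scalings, library totals, robust estimation, DESeq2, only the libraries compared, replicate blocks and leaving out each library, plus, after seeing the data, both e13.5 libraries of a number. Intervals of shares are 95% exact Clopper-Pearson ones. Values after ± are standard errors of log2 fold changes or SDs (n = 2) of levels.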

Additional observations from a re-analysis of the deposited data

Results flagged for a closer look

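Col22a1, a fibril-associated collagen known from the junctions of muscle with tendon, stood out because KO and WT differed in opposite directions at the 2 ages. In adults it had 0.725 and 0.795 CPM in KO and 0.291 and 0.344 CPM in WT, so that both KO libraries lay above both WT libraries. At e13.5 it had 0.438 and 0.435 CPM in KO and 0.737 and 0.758 CPM in WT, so that both KO libraries lay below. The interaction of genotype and age was 2.01 ± 1.18 on the log2 scale and did not pass (unadjusted p = 0.119, adjusted p = 1). Levels were near the 3-count floor of 0.103 to 0.207 CPM.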

How the results depend on the processing

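With a stricter filter (5 CPM in 2 or more libraries) 4 collagen genes were higher in WT adults (in place of 7) and 5 averaged over genotypes (in place of 9). The genes no longer called were not tested there, except Col6a3 averaged over genotypes (adjusted p = 0.0541). Without a filter 1 was lower in KO at e13.5 (in place of 0). Same-numbered libraries deviated together at e13.5 (r = 0.55 across genes between KO and WT) and in adults (r = 0.31), less so between ages (0.13 in KO and -0.03 in WT), and the numbers are not said to mark a litter or batch. With the replicate number as a block over all libraries the counts stayed within 1.5 times. The block within each age compares library 1 levels between the ages, so it is not an age effect averaged over library numbers. It is also not independent of leaving out the number 2 libraries. With the replicate number as a block within each age, calls over all genes rose from 6883 to 9281 in KO, 6463 to 8872 in WT and 9913 to 10674 averaged over genotypes. Of the collagen genes, 20 were then higher in KO adults (in place of 11), 12 in WT adults and 17 averaged over genotypes. With both e13.5 libraries of number 2 left out, chosen after seeing the data, these were 18, 15 and 17. Col3a1 turned to 2.65 in KO and 1.57 averaged over genotypes under the block within age, and to 2.0 and 1.10 without the number 2 libraries. Col1a2 turned to 0.48 and 0.10 averaged over genotypes. The cause was not tested. With each library left out in turn, calls ranged from 4 to 12 higher and 5 to 14 lower in KO, 2 to 12 and 8 to 18 in WT, and 7 to 15 and 13 to 20 averaged over genotypes, and were 0 for KO over WT, except 0 to 1 lower at e13.5, and 0 for the interaction. An arm left with 1 library was assumed to vary like the others, and calls over all genes also changed with the library left out. The collagen share was 0.285% in KO adults with mitochondrial, haemoglobin and ribosomal RNA genes left out of the total, and 0.316% in KO and 0.175% in WT adults over nuclear protein-coding genes. Upper quartile scaling moved the median of all genes by -0.20 in KO, -0.13 in WT and -0.17 averaged over genotypes, and median-of-ratios scaling by -0.11 for age in KO, 0.12 for KO over WT at e13.5 and -0.13 for the interaction. Of 2629 values of single genes under the alternatives, 2352 kept direction and side of the threshold, 115 lost a call, 57 gained 1 and 6 called ones changed direction. A further 99 changed sign without being called before or after, and 63 of these were for KO over WT at e13.5. Depth limits the genes near the floor of 3 counts, and 2 libraries a group limit every comparison.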
